A study of Rattus norvegicus with 4 samples.

Results

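A set of 10 brain vessel genes was followed in the hippocampus of newborn Wistar rats after prenatal exposure to bisphenol A (BPA). BPA is an endocrine-disrupting chemical of polycarbonate plastics and epoxy resins. The genes were taken by name as markers of brain endothelium (Cldn5, Pecam1, Slc2a1, Abcb1a, Mfsd2a, Flt1, Kdr and Tek) and of pericytes (Pdgfrb and Rgs5). Of the 17445 rows in the deposited files, 9 carried these symbols exactly, and Abcb1a was matched by its gene ID to a row listed as Abcb1, which brought the number to 10. All 10 passed the filter on low values, with a mean of at least 1 FPKM (sequenced fragments scaled to transcript length and to library depth), in a set of 13542 tested rows, of which 10857 carried a gene ID and the rest were new gene models.

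Endothelial cells of the brain form the blood-brain barrier: claudin-5 seals the junctions between neighbouring cells, transporters in the membrane carry glucose and lipids inward, and efflux pumps return drugs and toxins to the blood. Vessels grow into the brain before birth under vascular endothelial growth factor (VEGF), which acts through the receptors KDR and FLT1, while angiopoietins act through TEK to steady the vessel wall. Pericytes sit on the capillaries within the basement membrane, are recruited by PDGF-B through the receptor PDGFRB, and in the brain are needed for a tight barrier.

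The study compared 4 groups at postnatal day 1, namely control pups and BPA pups of each sex. Dams aged 10 weeks by the series' design text received BPA at 5000 µg per kg of body weight every day, starting at gestation day 1 and ending at birth, or the vehicle alone, both given into the stomach, so that the pups met BPA only through the dam. Each group was 1 RNA-seq library made from 3 pooled hippocampi, so the spread between animals was averaged within each pool and cannot be read from the data. Both sexes and both treatments otherwise shared strain, age and tissue, and with 1 library in a group any effect of BPA on a sex and any difference between those pools cannot be told apart.

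The libraries were of even depth, at an estimated 8645000 to 8910000 fragments. Sex labels matched the data, with Xist at 112.82 and 106.24 FPKM in the female libraries and 0.01 and 0.02 FPKM in the male ones, hippocampal markers summed to 673 to 779 FPKM in every library, and microglia markers to 70.1 to 83.1 FPKM. The libraries were uneven in tissue that borders the hippocampus. Markers of meningeal fibroblasts, the cells of the brain's coverings, summed to 409 FPKM in female control against 101 to 119 FPKM in the other libraries, and all 11 of those tested, of 12 in the list, were highest there; without Ptgds, the most abundant of them, the list summed to 200 FPKM in female control and 74.9 to 90.5 FPKM elsewhere. Choroid plexus markers summed to 270 FPKM in control and 715 FPKM in BPA in males, and to 12.1 FPKM in control and 48.1 FPKM in BPA in females, sums that were carried by transthyretin (Ttr). Without Ttr they were 13.4 and 25 FPKM in males and 8.12 and 5.68 FPKM in females.

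Promoter sequences were available in RefSeq (build GRCr8) for 6 of the 10 genes, namely Cldn5, Slc2a1, Abcb1a, Flt1, Kdr and Rgs5. The 4 that carry the comparisons described further on are printed as the 250 bases upstream of the annotated start, 5′ to 3′ on the strand of the gene: Rgs5, lower with BPA beyond counting error in both sexes; Kdr and Flt1, whose levels parted in the female pair; and Slc2a1, the gene that was higher with BPA. Capitals mark GGAA or its complement TTCC, the core bound by ETS factors such as ERG, a family that directs endothelial genes, and ACGTG (either strand), the core of the hypoxia response element.
Rgs5: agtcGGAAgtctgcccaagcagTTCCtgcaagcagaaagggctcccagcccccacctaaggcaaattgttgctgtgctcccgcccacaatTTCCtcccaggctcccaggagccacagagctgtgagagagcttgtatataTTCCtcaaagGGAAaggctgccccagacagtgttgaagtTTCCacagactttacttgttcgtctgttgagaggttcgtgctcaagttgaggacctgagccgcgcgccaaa
Kdr: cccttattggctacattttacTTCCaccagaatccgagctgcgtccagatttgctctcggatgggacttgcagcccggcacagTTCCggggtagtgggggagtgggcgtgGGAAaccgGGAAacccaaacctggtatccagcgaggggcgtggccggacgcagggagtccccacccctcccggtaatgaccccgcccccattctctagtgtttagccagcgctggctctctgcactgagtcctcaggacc
Flt1: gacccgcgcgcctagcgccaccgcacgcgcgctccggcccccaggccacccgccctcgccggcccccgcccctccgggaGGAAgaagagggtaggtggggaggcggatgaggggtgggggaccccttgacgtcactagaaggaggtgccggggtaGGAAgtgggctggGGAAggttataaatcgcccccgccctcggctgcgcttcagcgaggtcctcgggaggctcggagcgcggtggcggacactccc
Slc2a1: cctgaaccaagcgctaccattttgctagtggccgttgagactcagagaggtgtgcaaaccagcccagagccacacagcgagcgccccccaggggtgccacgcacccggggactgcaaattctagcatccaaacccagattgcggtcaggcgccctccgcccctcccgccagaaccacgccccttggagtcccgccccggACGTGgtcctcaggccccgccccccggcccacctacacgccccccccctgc
These windows lie at chr13:84380827-84381076 (+ strand) for Rgs5, chr14:32571813-32572062 (+ strand) for Kdr, chr12:12333180-12333429 (+ strand) for Flt1 and chr5:138002272-138002521 (+ strand) for Slc2a1. The ETS core occurred 6 times in the Rgs5 window, 4 times in that of Kdr, 3 times in that of Flt1, 2 times in that of Abcb1a and 0 times in those of Slc2a1 and Cldn5. At least 1 copy of this short core was present in 93.2% of 33469 promoter windows of the same length. The hypoxia core occurred 1 time, in Slc2a1, and is present in 16.6% of all windows. GC content was 54.4% in the Rgs5 window, 61.6% in Kdr, 73.2% in Flt1 and 68.4% in Slc2a1. These matches describe letters and not bound sites.

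Expression of the 10 genes spanned a wide range that kept much the same order in every library. Cldn5, the junction protein, was the most abundant at a mean of 64.7 FPKM, above 89.3% of the tested rows with a gene ID. It was followed by Rgs5 at 23.4 FPKM, Slc2a1 at 18.9 FPKM, Pdgfrb at 9.56 FPKM, Mfsd2a at 8.22 FPKM and Kdr at 6.76 FPKM, with Pecam1 (5.74 FPKM), Flt1 (4.97 FPKM), Tek (3.56 FPKM) and Abcb1a (2.7 FPKM) at the low end. FPKM is a per-length scale, so these levels can be set against each other, with the exception that the files list Rgs5 at 546 bases, the shortest of the 10, and if that model is partial its level, and any ratio of it to another gene, is set too high, while comparisons between libraries are not touched. Several neighbours in the order overlapped in their values over the 4 libraries (Rgs5 with Slc2a1, Mfsd2a with Kdr, Kdr with Pecam1, Pecam1 with Flt1 and Flt1 with Tek). Of these pairs, Rgs5 and Slc2a1 changed places in male BPA, and Mfsd2a and Kdr in female control, so their order is not firm. Kdr, Pecam1, Flt1 and Tek kept this order within every library. Cldn5 was above every other gene of the set in every library. In bulk tissue, fewer vascular cells and less RNA per vascular cell cannot be told apart in any of these values.

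**Figure D1:**
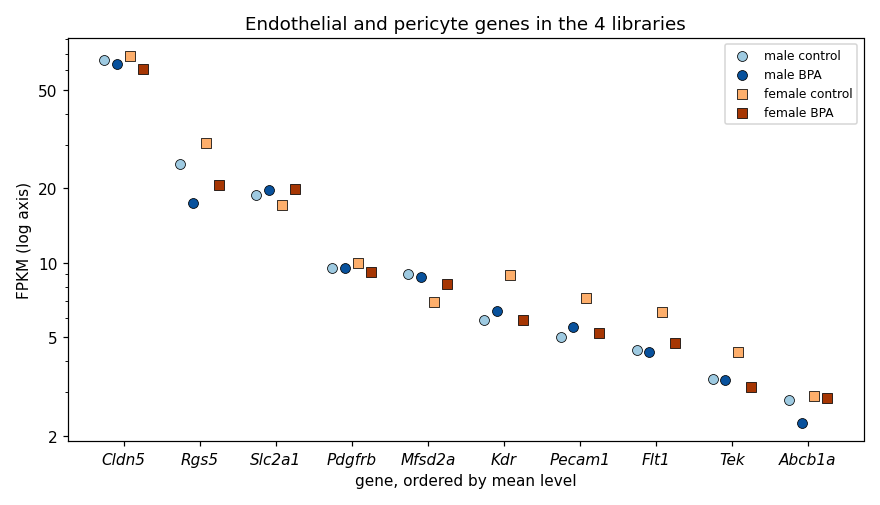
Expression in FPKM (log axis) of each gene in the 4 libraries, with genes ordered by mean level. Each symbol is 1 library of 3 pooled hippocampi (circles male, squares female, darker fill BPA), and there are no error bars because each group has 1 library. The female control square lies above the other symbols for 8 of the 10 genes, by the widest margin over the mean of the other 3 for Kdr, Rgs5, Flt1 and Pecam1.

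The question put to these data was whether prenatal BPA exposure altered vascular gene expression, and whether it did so alike in male and female pups. Across the treatments, 2 BPA libraries were compared with 2 control libraries with limma on log2(FPKM + 1), where a fold change of a low gene is understated. No gene of the 10 passed a Benjamini-Hochberg adjusted p of 0.05, and over all rows tested 0 of 13542 did (0.0%). At an unadjusted p under 0.05, 1 of the 10, Rgs5, was lower with BPA, where 3.11% of all rows were, and 0 were higher, where 1.6% of all rows were. A count of groups that did not overlap placed 4 genes (Cldn5, Tek, Pdgfrb and Rgs5) with both BPA libraries below both control libraries, against 20.2% of the rows with a gene ID, and 1 gene (Slc2a1) with both above, against 13.3%. The smallest two-sided p that exact permutation allows with these 4 libraries is 0.333. The 2 libraries of a treatment are pools of different sex, so the limma p-values measure only the spread between these pools.

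Within each sex, 1 library was compared with 1 by the fold of FPKM with an exact 95% interval on the estimated fragments, which covers counting error and no difference between animals. In males, 1 of the 10 genes (Rgs5) was below control beyond counting error, where 12.3% of rows with a gene ID were, and 0 were above, where 12.7% were. In females, 6 genes (Cldn5, Pecam1, Flt1, Kdr, Tek and Rgs5) were below control beyond counting error, where 20.9% of rows were, and 1 (Slc2a1) was above, where 14.0% were. The median log2 change of the 10 genes was -0.02 in males and -0.26 in females, beside -0.04 over the rows with a gene ID in females. For the 9 genes matched by symbol the median was -0.02 in males and -0.35 in females. With BPA, 6 of the 10 were lower in both sexes, as were 32.6% of the rows with a gene ID.

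**Figure D2:**
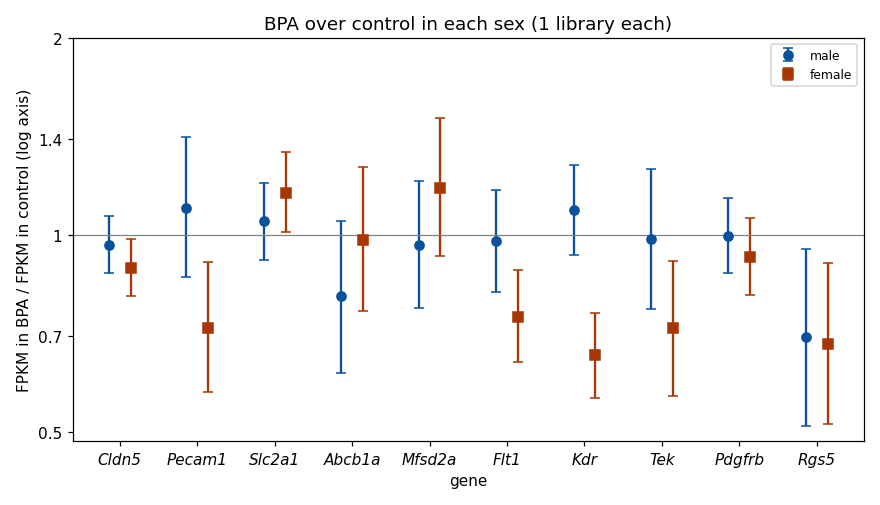
Ratio of FPKM in the BPA library to FPKM in the control library (log axis, line at 1) for each gene in males (circles) and females (squares), 1 library each; bars are exact 95% intervals for counting error only. Rgs5 lies at 0.698 in males and 0.681 in females, whereas Kdr lies at 1.09 in males and 0.654 in females.

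Rgs5, a regulator of G-protein signaling that is among the most used pericyte markers, showed the lowest ratios of the 10 genes in males and the second lowest in females. Its level was 25.09 FPKM in male control, 17.51 FPKM in male BPA, 30.37 FPKM in female control and 20.69 FPKM in female BPA. Both BPA libraries therefore lay below both controls, with male BPA the lowest of the 4. The fold was 0.698 in males (95% counting interval 0.511 to 0.95) and 0.681 in females (0.514 to 0.904), resting on 106 against 73 and 127 against 87 estimated fragments. Over both sexes the log2 difference was -0.51 (SE 0.143, 2 libraries against 2), with an unadjusted limma p of 0.00947 and an adjusted p of 0.973. With sex as a covariate the unadjusted p was 0.000515 and the adjusted p 0.183. The 4 libraries held 73 to 127 estimated fragments of this short transcript model, few for its level in FPKM. Collagens of the meningeal list were lower in the same libraries: Col1a1 was at 16.68 FPKM in male control and 10.29 FPKM in male BPA, and at 28.31 FPKM in female control and 10.82 FPKM in female BPA (log2 difference -0.98, adjusted limma p 0.973). The whole meningeal list had a median log2 change of -0.15 in males, with 6 of 11 genes lower. In females the median was -1.26, with 11 of 11 lower. Of the 10857 rows with a gene ID, 5533 were lower in males and 6199 in females. The part of the meningeal list in the Rgs5 difference was not tested.

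Pdgfrb, the receptor through which pericytes are recruited to vessels, was nearly level in all libraries. It stood at 9.57 FPKM in male control, 9.54 FPKM in male BPA, 9.94 FPKM in female control and 9.19 FPKM in female BPA. The highest of the 4 values exceeded the lowest by a factor of 1.08, the narrowest range of the 10 genes. The fold was 0.997 in males (0.875 to 1.14) and 0.925 in females (0.808 to 1.06), and the log2 difference over both sexes was -0.05 (SE 0.128, adjusted limma p 0.988). Although both BPA values were the lower ones, the difference in each sex was within counting error. The ratio of Rgs5 to Pdgfrb within a library was 2.62 (male) and 3.06 (female) in the controls and 1.84 (male) and 2.25 (female) with BPA, so the pericyte markers did not keep a fixed proportion.

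The fixed list of pericyte and smooth muscle genes had 21 entries, of which 17 were tested, and 0 passed the adjusted threshold. Both BPA libraries were below both controls for 6 of the 17 (against 20.2% of all rows with a gene ID) and above for 1 (against 13.3%), and the median log2 change was -0.15 in males and -0.19 in females. The summed level of the list was 98.1 FPKM in male control, 85.9 FPKM in male BPA, 111 FPKM in female control and 87.1 FPKM in female BPA. Tagln, a smooth muscle actin-binding protein, was at 4.46 FPKM in male control, 1.71 FPKM in male BPA, 7.12 FPKM in female control and 3.43 FPKM in female BPA. Its log2 difference was -0.94 (SE 0.301, unadjusted limma p 0.0178, adjusted p 0.973). Except where marked, genes named from a list were chosen for a large change in the same direction in both sexes. Their unadjusted p-values are therefore biased low by that choice. Myl9, a myosin light chain of contractile cells, was at 10.0 FPKM in male control, 6.25 FPKM in male BPA, 11.51 FPKM in female control and 8.85 FPKM in female BPA, with a log2 difference of -0.47 and an adjusted p of 0.973. Anpep, a peptidase on the pericyte surface, had a log2 difference of -0.47 and the same adjusted p.

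Some other pericyte genes, named here after their values were seen, did not follow Rgs5. Kcnj8, a channel subunit of brain pericytes, was at 2.69 FPKM in male control, 5.31 FPKM in male BPA, 3.5 FPKM in female control and 2.94 FPKM in female BPA. Its partner Abcc9 was at 5.17, 4.6, 5.3 and 5.69 FPKM in the same order of libraries, and vitronectin (Vtn) at 7.51, 6.44, 7.22 and 8.6 FPKM. For all 3 the treatment groups overlapped. Cd248, Foxc1 and Pdgfb of the same list, also named after their values were seen, had both BPA libraries below both controls. Cd248 was at 5.86, 5.01, 7.84 and 5.19 FPKM in the same order of libraries. Foxc1 was at 1.81, 1.46, 2.53 and 1.6 FPKM and Pdgfb at 8.57, 7.57, 8.47 and 5.49 FPKM. Their male folds were within counting error, and their female folds were below 1 beyond it. Heyl was the 1 gene of the list with both BPA libraries above. Acta2, the smooth muscle actin, was at 8.71 FPKM in female control and between 0.75 and 1.95 FPKM in the other 3 libraries, so it was uneven in the library that also held the most meningeal RNA.

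Kdr, the main signaling receptor for VEGF on endothelial cells, was the gene of the set whose change with BPA differed most between the sexes. Its level was 5.85 FPKM in male control, 6.37 FPKM in male BPA, 8.96 FPKM in female control and 5.86 FPKM in female BPA. Female control stood alone, at 1.49 times the mean of the other 3 libraries, which lay within a factor of 1.09 of each other. The fold was 0.654 in females (0.563 to 0.758, from 451 and 299 estimated fragments) and 1.09 in males (0.93 to 1.28). Over both sexes the log2 difference was -0.22 (SE 0.206, adjusted limma p 0.973), and it was 0.05 without the female control library.

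Flt1, the VEGF receptor that binds the ligand tightly and limits its action on KDR, followed a like order. It was at 4.45 FPKM in male control, 4.35 FPKM in male BPA, 6.33 FPKM in female control and 4.75 FPKM in female BPA. Female control was again the highest, at 1.4 times the mean of the others. The fold was 0.75 in females (0.64 to 0.884) and 0.978 in males (0.818 to 1.17), and the log2 difference over both sexes was -0.19 (SE 0.196, adjusted limma p 0.973), or 0.03 without female control. The ratio of Flt1 to Kdr ranged from 0.683 in male BPA to 0.811 in female BPA, a narrower range than that of either receptor.

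Tek, the angiopoietin receptor also known as TIE2, was at 3.4 FPKM in male control, 3.35 FPKM in male BPA, 4.36 FPKM in female control and 3.14 FPKM in female BPA. Both BPA libraries lay below both controls, but in males by less than counting error (fold 0.985, 0.771 to 1.26). In females the fold was 0.72 (0.566 to 0.912). The log2 difference over both sexes was -0.19 (SE 0.191, adjusted limma p 0.973), and it was -0.05 without female control.

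The ligands and partners of these receptors formed a list of 13 genes with 7 tested, of which 0 passed the adjusted threshold. With BPA, 7 of the 7 were lower in females and 4 in males. Of the 10857 rows with a gene ID, 6199 were lower in females and 5533 in males. Both BPA libraries were below both controls for 2 of the 7 (against 20.2% of all rows with a gene ID) and above for 0 (against 13.3%). The median log2 change was -0.44 in females and -0.04 in males. Vegfb, a ligand of FLT1, was lower in both sexes, at 6.99 FPKM in male control, 3.68 FPKM in male BPA, 6.65 FPKM in female control and 4.34 FPKM in female BPA. Its fold was 0.526 in males (0.377 to 0.737) and 0.653 in females (0.466 to 0.889). Its log2 difference was -0.65 (SE 0.161, unadjusted limma p 0.00565, adjusted p 0.973). Vegfb was named for the size of its change, so the unadjusted p is biased low. Vegfc, the ligand that drives lymphatic growth, was at 1.33 FPKM in male control against 0.67 FPKM with BPA, and at 2.93 FPKM in female control against 1.64 FPKM with BPA. Angpt1, the activating ligand of TEK, was at 3.66 against 3.28 FPKM in males and at 5.41 against 4.01 FPKM in females. Vegfa and Tie1, named after their values were seen, were also highest in female control. Vegfa was at 19.99 FPKM against 14.52 to 18.21 FPKM elsewhere, and Tie1, a relative of TEK, at 12.02 FPKM against 8.62 to 9.0 FPKM. In the list, 4 of the 7 tested genes were highest in female control, against 29.4% of the rows with a gene ID. Nrp1 and Nrp2 of this list, also named after their values were seen, were highest in male BPA. Nrp1 was at 67.92 FPKM in male control, 75.48 FPKM in male BPA, 65.51 FPKM in female control and 59.54 FPKM in female BPA. Nrp2 was at 86.33, 100.94, 85.8 and 65.07 FPKM in the same order. Both rose in males and fell in females beyond counting error.

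Cldn5, the tight-junction protein that seals brain endothelium, varied little. It was at 65.75 FPKM in male control, 63.5 FPKM in male BPA, 68.41 FPKM in female control and 60.98 FPKM in female BPA. Both BPA libraries were below both controls, and the 4 values lay within a factor of 1.12. The fold was 0.966 in males (0.874 to 1.07) and 0.891 in females (0.805 to 0.985), the latter just past counting error on 817 and 736 estimated fragments. The log2 difference over both sexes was -0.11 (SE 0.0957, adjusted limma p 0.973).

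Pecam1, an adhesion molecule at endothelial contacts (also called CD31), was at 5.03 FPKM in male control, 5.51 FPKM in male BPA, 7.21 FPKM in female control and 5.19 FPKM in female BPA. The treatment groups overlapped, with female control alone above the other 3, which lay within a factor of 1.10. The fold was 1.1 in males (0.863 to 1.41) and 0.72 in females (0.574 to 0.908). The log2 difference over both sexes was -0.15 (SE 0.192, adjusted limma p 0.975), or 0.07 without female control. Kdr stayed at 1.13 to 1.24 times Pecam1 across the libraries. The ratio of Cldn5 to Pecam1, in contrast, was lowest in female control (9.49) and 11.5 to 13.1 in the others, so the higher level in female control was not shared to the same extent by all endothelial genes.

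Among the other endothelial identity and junction genes, 18 of 20 were tested, 0 passed the adjusted threshold, and both BPA libraries were below both controls for 8 (against 20.2% of all rows with a gene ID) and above for 1 (against 13.3%). The median log2 change was -0.11 in males and -0.28 in females, and 12 of the 18 were highest in female control, as were 29.4% of all rows with a gene ID. Cdh5, the cadherin of endothelial junctions, was at 8.48 FPKM in male control, 6.44 FPKM in male BPA, 9.69 FPKM in female control and 6.82 FPKM in female BPA. Unlike Pecam1 it was lower beyond counting error in both sexes, with folds of 0.759 (0.608 to 0.952) in males and 0.704 (0.566 to 0.872) in females, and its log2 difference was -0.40 (SE 0.144, unadjusted limma p 0.0283, adjusted p 0.973). Erg, the ETS factor named above, was at 4.04 FPKM in male control, 2.53 FPKM in male BPA, 4.22 FPKM in female control and 2.49 FPKM in female BPA. Its folds were 0.626 (0.406 to 0.979) in males and 0.59 (0.374 to 0.906) in females, with a log2 difference of -0.55 (SE 0.179, unadjusted limma p 0.0195, adjusted p 0.973). Emcn, a sialomucin of the endothelial surface, had a log2 difference of -0.37 with an adjusted p of 0.973. The rule for named genes took 3 that were lower. Sox18, an endothelial transcription factor named after its values were seen, was the 1 gene with both BPA libraries above both controls, at 3.22 FPKM in male control, 5.73 FPKM in male BPA, 3.57 FPKM in female control and 3.61 FPKM in female BPA. Its fold was 1.78 in males (1.22 to 2.63) and 1.01 in females (0.666 to 1.53), with an adjusted limma p of 0.973.

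Slc2a1, the glucose transporter GLUT1 of barrier endothelium that is also made by other cells and induced by low oxygen, was the only one of the 10 with both BPA libraries above both controls. It was at 18.74 FPKM in male control, 19.66 FPKM in male BPA, 17.11 FPKM in female control and 19.89 FPKM in female BPA. The lowest BPA value exceeded the highest control value by less than 1 FPKM. The fold was 1.05 in males (0.916 to 1.2) and 1.16 in females (1.01 to 1.34), and the log2 difference over both sexes was 0.14 (SE 0.114, adjusted limma p 0.973).

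Mfsd2a, which carries omega-3 fatty acids across the barrier and keeps vesicle transport through endothelium low, was at 9.04 FPKM in male control, 8.73 FPKM in male BPA, 6.92 FPKM in female control and 8.2 FPKM in female BPA. With Slc2a1 it was one of only a pair of the 10 genes that were lowest rather than highest in female control. The fold was 0.966 in males (0.774 to 1.21) and 1.18 in females (0.928 to 1.51), both within counting error, and the adjusted limma p was 0.988. The ratio of Mfsd2a to Pecam1 was 0.96 in female control against 1.58 to 1.8 in the other libraries.

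Abcb1a, the drug efflux pump P-glycoprotein, was the least abundant of the 10 genes. It was at 2.8 FPKM in male control, 2.26 FPKM in male BPA, 2.9 FPKM in female control and 2.85 FPKM in female BPA, so male BPA was the low library. The fold was 0.807 in males (0.615 to 1.05) and 0.983 in females (0.766 to 1.27), both within counting error, with an adjusted limma p of 0.988. Its paralog Abcb1b, named after its values were seen and with which it can share reads, was at 0.34 to 0.62 FPKM in the 4 libraries, so both values are uncertain to that extent.

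The list of barrier transporters had 18 entries with 14 tested, and 0 passed the adjusted threshold. Both BPA libraries were below both controls for 6 of them (against 20.2% of all rows with a gene ID) and above for 3 (against 13.3%), and the median log2 change was -0.13 in males and -0.10 in females. Slco1c1, which carries thyroid hormone, was at 38.54 FPKM in male control, 32.11 FPKM in male BPA, 50.27 FPKM in female control and 33.32 FPKM in female BPA, with a log2 difference of -0.42 (unadjusted limma p 0.0234, adjusted p 0.973). Slc38a5, an amino acid transporter, was at 19.84 FPKM in male control, 15.91 FPKM in male BPA, 22.54 FPKM in female control and 12.38 FPKM in female BPA, with a log2 difference of -0.56 (unadjusted limma p 0.00873, adjusted p 0.973). Slc22a8, an organic anion transporter, had a log2 difference of -0.37 with the same adjusted p. The 3 genes with both BPA libraries above both controls, named after their values were seen, were Slc7a5 and Slc3a2, which together form the large neutral amino acid transporter, and Slc6a6, the taurine transporter. Their log2 differences were 0.14, 0.12 and 0.11, each with an adjusted limma p of 0.973, and their male folds were within counting error. Their female folds were above 1 beyond counting error, at 1.17 (1.09 to 1.25), 1.14 (1.06 to 1.24) and 1.11 (1.03 to 1.2). The summed level of the list differed little, from 350 to 373 FPKM.

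Genes of the vessel's surroundings were given by the same counts. The 8 tested basement membrane genes, of 12 in the list, were all lower with BPA in females and 3 of 8 were in males, with medians of -0.33 and 0.04. Of the 10857 rows with a gene ID, 6199 were lower in females and 5533 in males. Sparc, a matrix protein, was at 195.46 FPKM in male control, 183.94 FPKM in male BPA, 232.78 FPKM in female control and 183.82 FPKM in female BPA, and Col4a1, a chain of type IV collagen, was at 43.52, 39.12, 50.84 and 40.41 FPKM in the same order. Of 16 Wnt and Norrin genes, which instruct the barrier, 11 were tested, with medians of 0.02 in males and -0.22 in females, and Ndp, the Norrin ligand, had a log2 difference of -0.46 (adjusted p 0.973). Of 16 tip cell and Notch genes 13 were tested, with medians of 0.04 and -0.07, and Hey2, a Notch target, was at 3.83 FPKM in male control, 1.63 FPKM in male BPA, 2.54 FPKM in female control and 2.42 FPKM in female BPA. Of 14 hypoxia-regulated genes 11 were tested, with medians of -0.08 and -0.04, and Epas1, the hypoxia factor HIF-2α that is rich in endothelium, had a log2 difference of -0.42 (unadjusted limma p 0.0279, adjusted p 0.973). Both BPA libraries were below both controls for 3 of 8 basement membrane genes and 2 of 11 Wnt and Norrin genes. The same held for 1 of 13 tip cell and Notch genes and 3 of 11 hypoxia-regulated genes, against 20.2% of all rows with a gene ID. Both were above for 0 genes in each list, against 13.3% of those rows. In none of these lists did a gene pass the adjusted threshold in the limma comparison of the treatments.

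**Figure D3:**
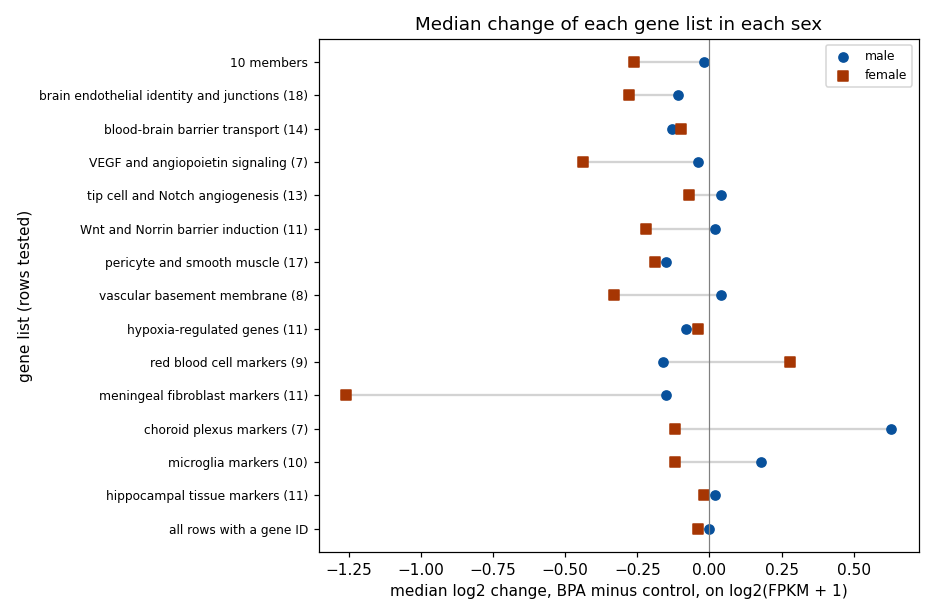
Median log2 change with BPA, on log2(FPKM + 1), of the 10 genes and of each fixed list in males (circles) and females (squares), with the number of tested genes in brackets and all rows with a gene ID at the bottom. The female median of the 10 genes is -0.26 and that of the meningeal list is -1.26, against -0.04 for all rows with a gene ID.

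Female control was the highest of the 4 libraries for 8 of the 10 genes, the exceptions being Slc2a1 and Mfsd2a, whereas it was the highest for 29.4% of the rows with a gene ID. The margin over the mean of the other 3 libraries was largest for Kdr (1.49 times), Rgs5 (1.44 times), Flt1 (1.4 times), Pecam1 (1.38 times) and Tek (1.32 times), and small for Abcb1a (1.10 times), Cldn5 (1.08 times) and Pdgfrb (1.05 times). Among those other libraries, 9 of the 10 genes lay within a factor of 1.26, and Rgs5 spanned 1.43. The same library held the most meningeal RNA (409 FPKM summed), with Ptgds, the prostaglandin D2 synthase of the meninges, also named after its values were seen, at 209.3 FPKM against 18.1 to 40.22 FPKM elsewhere, and Col1a1, Col3a1 and Lum, further matrix genes of fibroblasts, were highest there too. Blood vessels of the meninges carry endothelial and mural cells too, and the part of meningeal tissue in the female difference was not tested. Red blood cell genes summed to 1190 FPKM in female control, the lowest of the 4, and to 1480 FPKM in female BPA, the highest. Without female control, both BPA libraries were below male control for 5 genes (Cldn5, Mfsd2a, Tek, Pdgfrb and Rgs5), against 37.3% of the rows with a gene ID.

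Male and female libraries were compared in the same way. Over both treatments 0 of the 10 genes passed an adjusted p of 0.05, where 0.00738% of all rows did, and 0 had an unadjusted p under 0.05, where 10.6% of all rows did. The lowest adjusted p was that of Mfsd2a, at 0.638 with a male minus female log2 difference of 0.21, followed by Flt1 at 0.648 with -0.27. With treatment as a covariate, Rgs5 had a log2 difference of -0.25, an unadjusted limma p of 0.0265 and an adjusted p of 0.274. Between the control libraries, the female level exceeded the male one beyond counting error for Kdr (fold 1.53, 1.32 to 1.78), Pecam1 (1.43, 1.14 to 1.81), Flt1 (1.42, 1.21 to 1.67) and Tek (1.28, 1.02 to 1.62), and was lower for Mfsd2a (0.765, 0.603 to 0.973). That is 4 of 10 genes higher, where 17.8% of the rows with a gene ID were, and 1 lower, where 16.6% were. Between the BPA libraries, the interval of the female to male fold included 1 for all 10 genes, whereas 13.7% of the rows were higher and 20.1% lower in the female library beyond counting error.

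**Figure D4:**
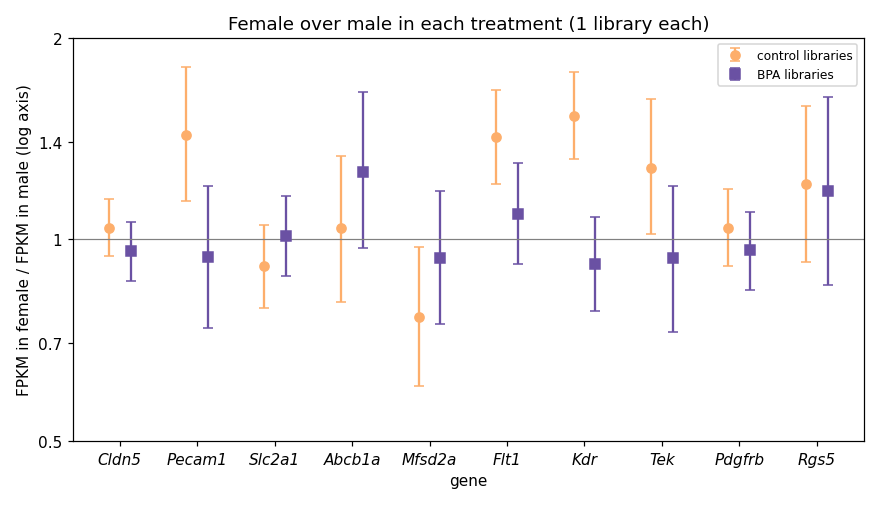
Ratio of FPKM in the female library to FPKM in the male library (log axis, line at 1) among controls (circles) and among BPA libraries (squares), 1 library each; bars are exact 95% intervals for counting error only. Kdr, Pecam1, Flt1 and Tek lie above 1 and Mfsd2a below 1 among controls, while all 10 intervals among BPA libraries include 1.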

How the data were processed

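Hippocampal RNA of newborn Wistar rats was sequenced as 4 libraries, 1 for each sex and treatment, each from 3 pooled hippocampi. The authors deposited expression per gene as FPKM with 2 decimals. The submitters' processing notes name HISAT 0.1.6, Bowtie2 2.2.5, RSEM and the rat build rn6 without their roles. The annotation is not given in the sources used here. Because FPKM are not counts, log2(FPKM + 1) was tested with limma 3.58.1 (R 4.3.3, moderated statistics with trend) over 13542 rows present in all 4 files with a mean of at least 1, and p-values were adjusted by Benjamini-Hochberg. Sex and treatment were each fitted without the other as covariate. Fragments behind each value were estimated from the smallest steps between low FPKM values (by library, 95.7% to 99.1% of those values came within 0.15 of whole numbers), which gave 8645000 to 8910000 fragments a library and lengths shortened by 61 to 79 bases. Exact 95% binomial intervals on those fragments cover counting error only. Python 3.11.15, pandas 2.3.3, numpy 2.4.6, scipy 1.17.1 and matplotlib 3.10.9 were used.

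The genes and the 13 lists were chosen with earlier results of these data known. Named genes are the 10 vascular genes and, from each list, up to 3 tested rows that changed in the same direction in both sexes with the largest smaller change; others are marked. Alternatives were quantile normalization, size factors, other filters and pseudocounts, the other factor as covariate, rows with a gene ID only, 9 genes matched by symbol, and leaving out each library.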

Additional observations from a re-analysis of the deposited data

Results flagged for a closer look

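For 3 of the 10 genes the BPA library moved in opposite directions in the sexes, and the difference between the sexes was not tested, since each group holds 1 library. Of the 10857 rows with a gene ID, 5533 were lower in males and 6199 in females, but 3539 in both. A lower value in 1 sex alone was thus common among all rows. Kdr had a male minus female log2 change of 0.64, with males at 5.85 FPKM in control and 6.37 FPKM in BPA, and females at 8.96 and 5.86 FPKM. Pecam1 had one of 0.52, with males at 5.03 and 5.51 FPKM and females at 7.21 and 5.19 FPKM. Mfsd2a had one of -0.26, with males at 9.04 and 8.73 FPKM and females at 6.92 and 8.2 FPKM. In each male pair, and in the female pair for Mfsd2a, the fold was within counting error. All 3 genes were set apart in the female control library, which also held the most meningeal RNA, and the part of that tissue was not tested.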

How the results depend on the processing

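No call among the 10 genes depended on the processing in either limma comparison: under the alternatives 197 values of single genes kept their direction and their side of the threshold, and 17 reversed in sign or came to 0, each without passing the threshold. Within a sex, where there was no test, 60 values moved by less than counting error; Abcb1a in females went from -0.02 to 0.12 under quantile normalization and 0.00 under size factors. The number of rows past an adjusted p of 0.05 for BPA was 0, at 637 rows with an unadjusted p under 0.05, and became 2 with sex as a covariate and 0 to 3 when 1 library was left out (1 without male BPA, 3 without female control). For sex it was 1, and became 21 with a mean of at least 5, 55 with treatment as a covariate, 34 with gene ID rows only and 1 to 2 when 1 library was left out (2 without female control). The cause of these shifts was not tested.

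With 1 library left out, log2 differences for BPA ranged from -0.37 to 0.07 for Pecam1, -0.24 to 0.00 for Abcb1a, -0.09 to 0.26 for Mfsd2a, -0.40 to 0.03 for Flt1 and -0.49 to 0.05 for Kdr. All turned without female control except Abcb1a, which was at 0.00 without male BPA. Rgs5 kept its direction, at -0.65 to -0.38, with an unadjusted p of 0.0631 without male BPA and 0.0637 without female control. Male minus female differences ranged from -0.08 to 0.08 for Cldn5, -0.39 to 0.02 for Pecam1, -0.05 to 0.16 for Slc2a1, -0.49 to 0.05 for Kdr, -0.29 to 0.08 for Tek, -0.05 to 0.05 for Pdgfrb and -0.51 to 0.02 for Rgs5. For Cldn5 the difference was -0.02 under quantile normalization and under size factors. In a fit that left an arm with 1 library, that library was assumed to vary like the others. Size factors in the limma comparisons, rows with a gene ID for sex, the match by symbol and the count without female control were chosen after seeing the data. Summing new gene models with a member gave no value, since 0 of them carried a member's protein name. The fit with sex as a covariate compares BPA with control within sex; the labels give no replicate numbers that could pair libraries otherwise. The counts limit Rgs5 most, at 73 to 127 estimated fragments.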

Other observations

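Several genes of the vascular lists that were named by the same rule showed little difference or 1 in a single sex. Tspan12, the tetraspanin that supports Norrin signaling, was at 11.54 FPKM in male control, 12.73 FPKM in male BPA, 12.96 FPKM in female control and 13.35 FPKM in female BPA, with a log2 difference of 0.09 (adjusted limma p 0.982). Plxnd1, a semaphorin receptor of endothelium, had folds of 0.918 (95% counting interval 0.847 to 0.995) in males and 0.984 (0.901 to 1.07) in females. Axin2, a target of Wnt signaling, had folds of 0.951 (0.761 to 1.19) and 0.837 (0.666 to 1.05). Lamc1, a laminin chain of the basement membrane, had folds of 0.977 (0.896 to 1.07) in males and 0.772 (0.709 to 0.841) in females. Among the hypoxia-regulated genes, Pfkfb3, a regulator of glycolysis, had folds of 1.1 (0.995 to 1.21) and 1.08 (0.974 to 1.2), and Pgk1, a glycolytic enzyme, 0.839 (0.779 to 0.903) and 0.969 (0.902 to 1.04). None of these passed the adjusted threshold in limma.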
